A study of Mus musculus with 17 samples.

Results

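The expression of 8 genes of ovarian steroid synthesis and its hormonal control was followed through RNA-seq of mouse perigonadal white adipose tissue (pWAT), out of 55401 genes in the deposited tables. They are *Star*, *Cyp11a1*, *Fdx1*, *Hsd3b1*, *Cyp17a1*, *Lhcgr*, *Ptgfr* and *Akr1c18*. The 8 genes were chosen by their measured levels, being luteal and thecal genes already seen to be high in some female libraries of these data. Their level in females over males, and which female libraries hold them, are therefore given as a description without a test. The 17 libraries came from C57BL/6J mice, with 5 WT females, 5 U9-KO females, 3 WT males and 4 U9-KO males. U9-KO mice lack every exon of the long non-coding RNA gene *U90926*, and WT littermates from crosses of heterozygous parents were the controls. All mice were fed standard chow and housed at the German Mouse Clinic, whose screen of this cohort included food withdrawal and a glucose injection, and the labels give no other treatment. The methods put tissue collection at 16 weeks of age, although the study describes measurements of the cohort at later ages, so the age is uncertain. RNA was extracted from a piece of the whole pad without separating its cells. The labels number the libraries within each group as replicates without naming the mouse behind each, so the p-values below measure the spread between libraries.

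As background, steroid-making cells import cholesterol into mitochondria, cut its side chain to form pregnenolone, and oxidize pregnenolone to progesterone. After ovulation the follicle wall becomes the corpus luteum, which makes progesterone under luteinizing hormone and regresses in response to prostaglandin F2α. The thecal cells around growing follicles carry the reaction on to androgens, which granulosa cells convert to estrogens. Perigonadal fat of female mice adjoins the ovary, oviduct and uterus, and that of male mice adjoins the testis and epididymis.

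The members were identified by Ensembl number and placed on GRCm38, the build named for the deposited files. *Cyp11a1* (ENSMUSG00000032323) lies at chr9:58006411-58027023 on the plus strand, and *Star* (ENSMUSG00000031574) at chr8:25806555-25815982 on the plus strand. *Fdx1* (ENSMUSG00000032051) lies at chr9:51943306-51963556, *Hsd3b1* (ENSMUSG00000027871) at chr3:98852194-98859794 and *Cyp17a1* (ENSMUSG00000003555) at chr19:46667165-46673172, all on the minus strand. *Lhcgr* (ENSMUSG00000024107) lies at chr17:88716481-88791990, *Ptgfr* (ENSMUSG00000028036) at chr3:151796502-151837630 and *Akr1c18* (ENSMUSG00000021214) at chr13:4132615-4150654, also on the minus strand. In the GENCODE M21 annotation *Cyp11a1* overlaps *Gm17322* on the same strand and *Ptgfr* overlaps *Gm43618* on the opposite strand, while the other members overlap no gene. No stretch of 100 bases in the longest transcript of any member was found in a transcript of another gene, so reads of *Hsd3b1* and *Akr1c18* can be told from their many relatives over such stretches.

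Because many of these genes are known targets of steroidogenic factor 1 (the product of *Nr5a1*) and of its relative encoded by *Nr5a2*, the 250 bases before each annotated RefSeq start (GRCm38.p6) were searched on both strands for AGGTCA, the core of the site these receptors bind. Windows were found for 6 members, 7 in all, and *Star* and *Cyp17a1* had no entry. The letters were present in 3 of the 7 windows, against 14.0% of all 32851 windows. The 3 matches are shown with 12 bases on either side, on the strand of the gene, with the match in capitals. The *Cyp11a1* match, within the stretch shown from chr9:58014912-58014941, begins 28 bases before the second of its 2 annotated starts. It lies within an exon of a longer transcript in GENCODE. The *Lhcgr* match, within the stretch shown from chr17:88792119-88792148, begins 122 bases before the start. The *Ptgfr* match, within the stretch shown from chr3:151837681-151837710, begins 170 bases before the start and is on the opposite strand.
Cyp11a1: gaggaaggggggAGGTCAccgctccatcag
Lhcgr: ggccacagtcccAGGTCAaggagaacaggg
Ptgfr: aagcttcggaaaTGACCTctttcatttgga

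Values are normalized counts, which are gene-level read counts that the authors scaled to a common library size and gave as whole numbers. Library factors estimated from the spacing of these whole numbers ran from 0.757 to 1.23, which puts the counted reads at about 19710000 to 27610000 per library. *U90926* was at 0 or 1 in every library, WT included, so it could not check the genotype labels. *Xist* was at 16816 to 23746 in the females and 4 to 41 in the males, and the Y-linked *Ddx3y* was at 3006 to 3556 in the males and at most 18 in the females, which matched the labelled sexes. The adipocyte genes *Adipoq*, *Fabp4* and *Plin1* were abundant in every library, with *Adipoq* at 27618 or more.

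The plainest feature of the 8 genes was how unequal the female libraries were. WT replicate 4 and U9-KO replicate 1 held the 2 highest female values of all 8 members, and each came from a different genotype. The summed normalized counts of the 8 genes were 5193, 30504, 12921, 122821 and 38434 in WT female replicates 1 to 5 and 147925, 5758, 5920, 9076 and 23997 in U9-KO female replicates 1 to 5. These sums made up 0.607% of all normalized counts in WT replicate 4 and 0.688% in U9-KO replicate 1, and 0.0207% to 0.176% in the other females. In the 7 males the sums were 956 to 1296, or 0.00434% to 0.00545%, and *Fdx1* alone supplied most of them. Each library below the top pair still lay above all males in its sum.

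**Figure D1:**
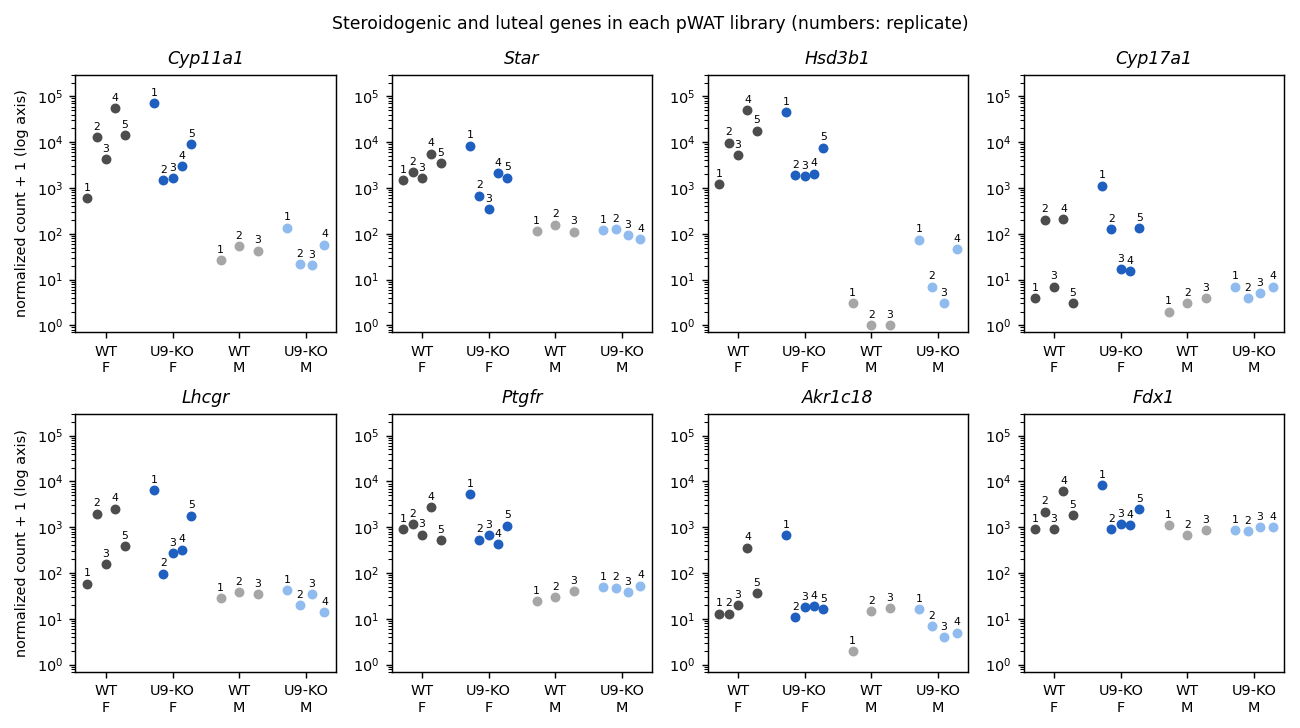
Normalized count plus 1, on a log axis, of each of the 8 genes in each library; every point is 1 library and its number is the replicate. WT female 4 and U9-KO female 1 are highest among females in all 8 panels, *Hsd3b1* lies at 1222 or more in each female and at 73 or less in each male, and *Fdx1* overlaps between the sexes.

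The entry of cholesterol into the pathway depends on *Star*, which encodes the protein that carries cholesterol to the inner mitochondrial membrane. *Star* was at 1472, 2184, 1607, 5615 and 3528 in WT females and at 8440, 680, 350, 2118 and 1680 in U9-KO females. Males had 114, 158 and 110 (WT) and 117, 127, 93 and 76 (U9-KO). All 10 females lay above all 7 males, but the margin ran from 2.22 times the highest male in U9-KO replicate 3 to 53.4 times in U9-KO replicate 1.

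*Cyp11a1* encodes the mitochondrial enzyme that cuts the cholesterol side chain, the step that commits a cell to steroid synthesis. It was at 597, 12991, 4310, 54629 and 14293 in WT females and at 71595, 1493, 1615, 3007 and 9197 in U9-KO females. Males had 26, 52 and 42 (WT) and 135, 21, 20 and 57 (U9-KO). The lowest female, WT replicate 1, was 4.42 times the highest male, and the other 9 females were 11.1 to 530 times the highest male. Females differed among themselves by 120 times from lowest to highest, far more than the 6.75 times among males.

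*Fdx1* encodes ferredoxin, which passes electrons to mitochondrial P450 enzymes such as the *Cyp11a1* product and is made in most tissues. It was at 916, 2190, 895, 6246 and 1814 in WT females and at 8209, 902, 1166, 1112 and 2521 in U9-KO females. Males had 1102, 663 and 853 (WT) and 850, 837, 1016 and 1003 (U9-KO). It was the 1 member with no female library at 10 or more times the highest male, and 3 females, WT replicates 1 and 3 and U9-KO replicate 2, lay inside the male range. Its excess was largest in the top pair, at 5.67 and 7.45 times the highest male. It was smaller in U9-KO replicate 5 (2.29 times), WT replicate 2 (1.99) and WT replicate 5 (1.65). U9-KO replicates 3 and 4 were at 1.06 and 1.01 times the highest male.

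*Hsd3b1* encodes the enzyme that turns pregnenolone into progesterone in the gonads and adrenal gland. It was at 1222, 9769, 5245, 50452 and 17839 in WT females and at 45985, 1913, 1808, 2066 and 7574 in U9-KO females. Males had 2, 0 and 0 (WT) and 73, 6, 2 and 46 (U9-KO). It was the 1 member for which all 10 females passed 10 times the highest male, at ratios of 16.7 to 691. Per kilobase of annotated exon it was also the highest of the 8 in every female library, at 27200 in WT replicate 4 and 24800 in U9-KO replicate 1, with *Cyp11a1* second in 8 of 10 libraries. Its relatives were nearly silent: *Hsd3b2* was at no more than 1 and *Hsd3b6* at no more than 15 normalized counts in any female.

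*Cyp17a1* encodes the enzyme that leads progestins to androgens and in the ovary marks thecal cells. It was at 3, 203, 6, 204 and 2 in WT females and at 1129, 126, 16, 14 and 130 in U9-KO females. Males had 1, 2 and 3 (WT) and 6, 3, 4 and 6 (U9-KO). It was the lowest or among the 3 lowest members per kilobase in each female library. WT replicates 1, 3 and 5 lay within or at the edge of the male range, although replicate 5 held 14293 of *Cyp11a1*, so the members did not rise and fall in fixed proportion.

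*Lhcgr* encodes the receptor for luteinizing hormone, through which the pituitary drives luteal and thecal steroid synthesis. It was at 58, 1982, 153, 2545 and 392 in WT females and at 6583, 96, 276, 322 and 1796 in U9-KO females. Males had 27, 38 and 33 (WT) and 41, 19, 33 and 13 (U9-KO). All females lay above all males, from 1.41 times the highest male in WT replicate 1 to 161 times in U9-KO replicate 1. WT replicate 2 and U9-KO replicate 5 came close to WT replicate 4 for this gene, which they did not do for *Cyp11a1* or *Hsd3b1*.

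*Ptgfr* encodes the receptor for prostaglandin F2α, the signal for regression of the corpus luteum. It was at 913, 1173, 686, 2773 and 530 in WT females and at 5299, 538, 672, 419 and 1084 in U9-KO females. Males had 23, 29 and 39 (WT) and 48, 47, 38 and 52 (U9-KO). Every female lay at 8.06 or more times the highest male, and females differed by 12.6 times from lowest to highest, less than for *Cyp11a1*, *Hsd3b1*, *Cyp17a1* and *Lhcgr*.

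*Akr1c18* encodes the 20α-hydroxysteroid dehydrogenase that inactivates progesterone late in the life of the corpus luteum. It was at 12, 12, 19, 357 and 36 in WT females and at 685, 10, 17, 18 and 15 in U9-KO females. Males had 1, 14 and 16 (WT) and 15, 6, 3 and 4 (U9-KO). It stood well clear of the males in the top pair, at 22.3 and 42.8 times the highest male, while in the other 8 females it was at 0.625 to 2.25 times that value. Of the neighbouring family members, *Akr1c14* was also highest in the top pair, at 2119 in WT replicate 4 and 2877 in U9-KO replicate 1. It was at 522 to 1554 in the other females and 80 to 125 in males. *Akr1c12* went the other way between the sexes, at 6 to 20 in females and 25 to 48 in males. *Akr1cl*, picked out after its values were seen, was at 26484 in WT female replicate 4 and 14175 in U9-KO female replicate 1, at 809 to 5060 in the other females and at 4 to 38 in males.

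Counted over all 8, every female lay above every male for 5 members (*Star*, *Cyp11a1*, *Hsd3b1*, *Lhcgr* and *Ptgfr*), where 9.12% of 26289 genes did so. The highest female reached 10 times the highest male for 7 members, where 3.51% of genes did so. Both counts restate how the genes were chosen. By library, the number of members at 10 or more times the highest male was 2, 6, 4, 7 and 4 in WT female replicates 1 to 5. It was 7, 4, 3, 3 and 6 in U9-KO female replicates 1 to 5. Over the 8 genes and 10 female libraries, 46 of the library-by-gene pairs reached that ratio. These counts too follow from how the genes were chosen, and the share of all genes was not counted for each library. The 2 genes at 10 or more times in WT replicate 1 were *Hsd3b1* and *Ptgfr*. *Hsd3b1* passed that ratio in all 10 female libraries, but it is a gene of the adrenal gland as well as the gonads. WT replicate 1, with the lowest female *Hsd3b1*, also held the adrenal gene *Cyp21a1* at 782. There *Lhcgr* was at 1.41 times the highest male, and *Cyp17a1*, *Akr1c18* and *Fdx1* were at 0.5, 0.75 and 0.831 times. In bulk tissue a larger number of cells of a type and more RNA in each such cell cannot be told apart.

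**Figure D2:**
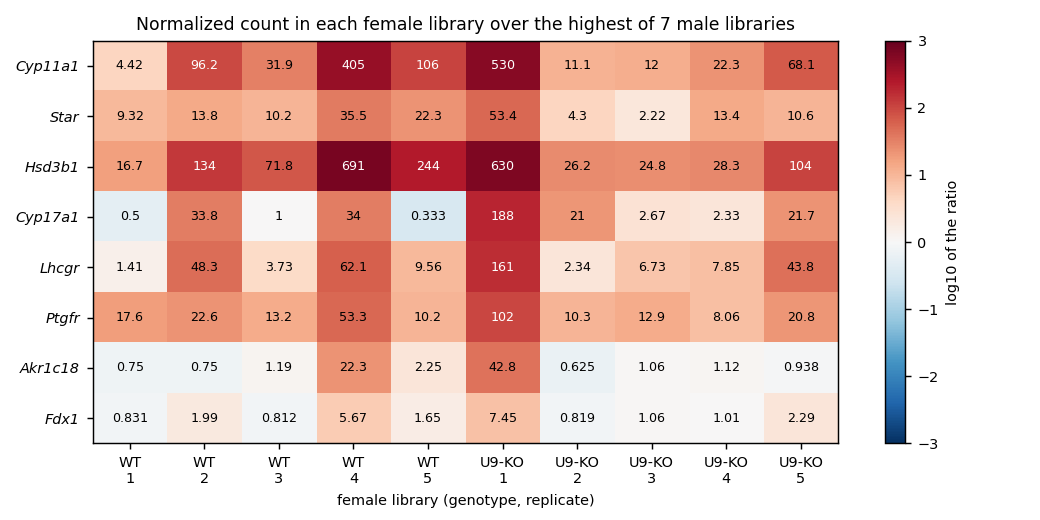
Normalized count in each female library divided by the highest of the 7 male values of the same gene; columns are female libraries and colour is the log10 of the ratio. *Hsd3b1* is at 16.7 or more in each column, *Akr1c18* passes 10 only in WT replicate 4 and U9-KO replicate 1, and *Fdx1* does not pass it in any.

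The relative amounts of the members also differed between female libraries. With *Cyp11a1* in the same library set to 100%, *Hsd3b1* stayed within 64.2% to 205%, the narrowest range of the 7 genes. *Star* ranged from 10.3% in WT replicate 4 and 11.8% in U9-KO replicate 1 to 247% in WT replicate 1. *Cyp17a1* ranged from 0.014% in WT replicate 5 to 8.44% in U9-KO replicate 2, and *Lhcgr* from 2.74% in WT replicate 5 to 19.5% in U9-KO replicate 5. The top pair resembled each other in *Star* and *Fdx1* (11.4% and 11.5%) and differed in *Cyp17a1*, at 0.373% in WT replicate 4 and 1.58% in U9-KO replicate 1. *Fdx1*, *Ptgfr* and *Star* were high relative to *Cyp11a1* in WT replicate 1, where *Cyp11a1* was lowest.

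**Figure D3:**
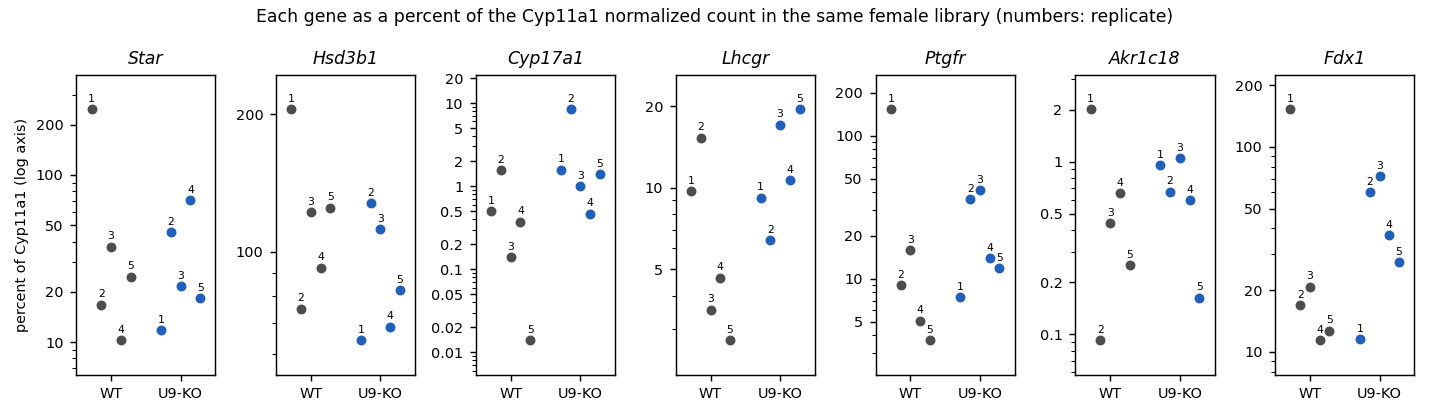
Each of the other 7 genes as a percent of the *Cyp11a1* normalized count in the same female library, on a log axis that differs between panels; points are libraries and numbers are replicates. *Hsd3b1* stays between 64.2% and 205%, whereas *Cyp17a1* runs from 0.014% to 8.44%.

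The genes whose pattern over the 10 female libraries was most like that of *Cyp11a1* were found by the root mean square difference of log2(normalized count + 1) after centring each gene, among 16051 genes with a mean of at least 20. The 5 nearest genes outside the 8 were *Acsbg1* (0.428), an acyl-CoA synthetase gene, *E330017L17Rik* (0.523), *Kcnab3* (0.589), *Frmd5* (0.656) and *Tmem171* (0.67). *Hsd3b1* ranked second of all genes at 0.486, *Lhcgr* was at 0.919, *Fdx1* at 1.21, *Akr1c18* at 1.26, *Star* at 1.3 and *Ptgfr* at 1.52. *Acsbg1* was at 7714 in WT replicate 4 and 6657 in U9-KO replicate 1, at 98 to 2254 in the other females and at 24 to 66 in males. *Cyp17a1* stood apart from the others, at 2.19 from *Cyp11a1*, with a different set of nearest genes: *5330417C22Rik* (1.37), *Bpifb5* (1.44), *Lipg* (1.5), *Plch2* (1.52) and *Hsd17b7* (1.55). All of these patterns were measured in the same 10 libraries.

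Other genes of luteal cells were read from a list of 9. *Sfrp4*, a secreted Wnt antagonist of luteal cells, was at 8947 in WT replicate 4 and 22099 in U9-KO replicate 1, at 697 to 2419 in the other females and at 25 to 326 in males. *Prlr*, the prolactin receptor gene, was at 6202 and 8612 in that pair and at 1048 to 1924 in the other females. *Scarb1*, which takes up cholesterol from lipoproteins, was at 7381 and 14295 there and at 2661 to 5761 in the others. *Hsd17b7*, whose product converts estrone to estradiol in the corpus luteum, separated the top pair: it was at 16511 in U9-KO replicate 1 and 746 in WT replicate 4, below the 2214 of WT replicate 2. For 3 of the 8 genes of this list that were tested every female lay above every male, beside 9.12% of all genes.

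Several nuclear regulators of steroid synthesis, *Nr5a1*, *Nr5a2* and *Gata4* among them, were highest in the same 2 female libraries. *Nr5a1* was at 98, 635, 380, 2944 and 718 in WT females, at 1966, 238, 143, 224 and 472 in U9-KO females and at 0 to 10 in males. *Gata4*, which acts with it in gonadal cells, was at 2428 in WT replicate 4 and 1402 in U9-KO replicate 1, at 95 to 542 in the other females and at 2 to 33 in males. *Nr5a2* was at 2618 and 2795 in that pair, at 149 to 660 in the others and at 70 to 97 in males. *Gata6* (987 to 2300 in females) and *Cebpb* (628 to 1558) did not single out the pair. Of the 9 regulators, 5 had every female above every male, beside 9.12% of all genes tested.

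Of the 5 further thecal genes, *Aldh1a1* was at 20632 in WT replicate 4 and 12811 in U9-KO replicate 1 and at 4080 to 8253 in the other females, against 6690 to 9527 in males. *Ptch1* and *Tcf21* were at 1462 to 2354 and 353 to 685 in females, against 894 to 1057 and 103 to 212 in males. *Insl3*, a hormone gene of thecal and Leydig cells, was at 28 to 90 in females and 33 to 60 in males. Among 9 genes of cholesterol supply, *Soat1*, which esterifies cholesterol for storage, was at 7883 in WT replicate 4 and 7060 in U9-KO replicate 1, at 643 to 2586 in the other females and at 326 to 572 in males. *Lipe*, *Npc2* and *Abca1*, which are used widely by adipocytes and macrophages, had ranges that overlapped between the sexes, and *Lipe* was at 9777 to 26233 in females and 24828 to 30610 in males. Of these 9 genes, 1 had every female above every male, a share close to the 9.12% of all genes.

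Markers of other cells near the gonad moved with the 8 genes in part. The summed oocyte list of 12 genes was at 2574 in WT replicate 4 and 1933 in U9-KO replicate 1, at 671 in WT replicate 5, at 79 to 416 in the other females and at 20 to 45 in males. *Padi6* and *Zp2*, oocyte genes, were at 564 and 360 in WT replicate 4, at 442 and 284 in U9-KO replicate 1, and at 1 and 0 in U9-KO replicate 4. The summed granulosa list of 10 genes was at 19461 and 12176 in the top pair, at 2690 to 5425 in the other females and at 1286 to 2084 in males. *Inha*, an inhibin subunit gene, was at 7239 and 4018 there and at 227 to 1070 in the others. *Amh*, the hormone of growing follicles, was at 1817 and 523 in the pair, at 4 to 204 in the other females and at 0 to 7 in males, and *Cyp19a1*, the aromatase gene, was at 205 and 45 in the pair and at 0 to 22 in the others. *Inha*, *Amh*, *Cyp19a1* and the oocyte sum were thus higher in WT replicate 4 than in U9-KO replicate 1, while *Nr5a2* of the granulosa list was higher in U9-KO replicate 1. Of the 8 genes, *Hsd3b1* was higher in WT replicate 4 and the other 7 in U9-KO replicate 1. The part of any of these cells in the values of the 8 genes was not tested.

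The oviduct list of 7 genes followed another order. Its sum was 8347 in WT female replicate 3, 2309 in U9-KO female replicate 4, 215 to 808 in the other females and 37 to 89 in males. Most of it was *Ovgp1*, an oviduct glycoprotein gene, at 7684 in WT replicate 3 and 1256 in U9-KO replicate 4. These libraries were not those with the highest steroidogenic values. The mesothelium list of 6 genes summed to 6728 to 14587 in females and 3943 to 8396 in males, and was at 8348 and 6948 in the top pair, near the low end for females. The adipocyte list of 8 genes was lowest in the top pair, at 197011 in WT replicate 4 and 173343 in U9-KO replicate 1, against 268790 to 408109 in the other females and 422604 to 561368 in males. *Adipoq* was at 30644 and 27618 in the pair and at 49174 to 72328 in the other females.

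WT female replicate 1 held a different mixture. *Cyp21a1*, which makes corticosteroid precursors in the adrenal cortex, was at 782 there and at most at 8 in any other library. *Cyp11b1*, the last enzyme of corticosterone synthesis, was at 523 there, at 98 in WT replicate 4 and at most at 43 in the rest, and *Cyp11b2*, the aldosterone synthase gene, was at 25. In the same library *Star* was 247% of *Cyp11a1* and *Lhcgr* was at its female minimum of 58. The list of 7 adrenal and Leydig cell genes summed to 1844 there and to 258 to 443 in the other females, a range that met that of the males (363 to 433). *Mc2r* supplied most of the sum in the other libraries, at 185 to 386. The part of adrenal cells in the *Star*, *Cyp11a1* and *Hsd3b1* values of WT replicate 1 was not tested.

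**Figure D4:**
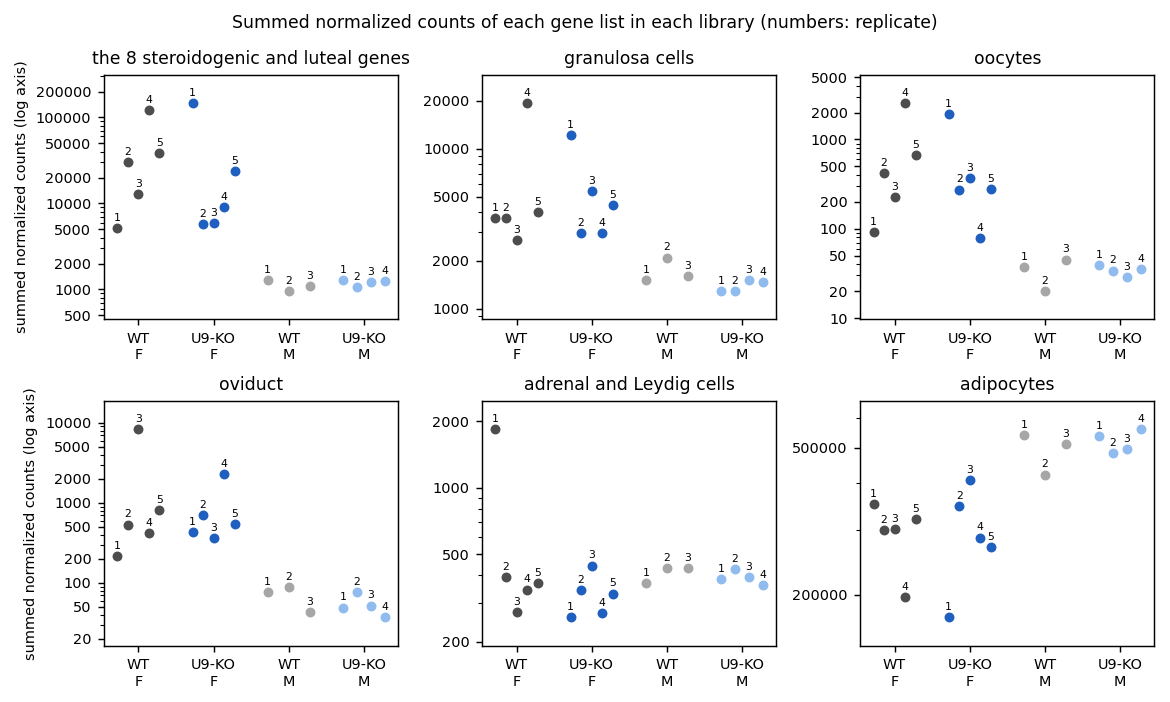
Summed normalized counts of the 8 genes and of marker lists for 5 other cell types in each library, on log axes that differ between panels; points are libraries and numbers are replicates. The 8 genes, granulosa and oocyte lists peak in WT female 4 and U9-KO female 1, the oviduct list in WT female 3 (8347), the adrenal and Leydig cell list in WT female 1 (1844), and the adipocyte list is lowest in the top pair.

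The male libraries gave the background of the 8 genes. *Cyp17a1* was at 1 to 6 and *Akr1c18* at 1 to 16, and *Hsd3b1* was at 0 to 6 in 5 of the 7 libraries. *Star*, *Lhcgr* and *Ptgfr* were low but present in all 7 males, at 76 to 158, 13 to 41 and 23 to 52. The U9-KO male replicates 1 and 4 held 73 and 46 of *Hsd3b1* and 135 and 57 of *Cyp11a1*, the highest male values of both. The same libraries had the highest male values of *Ptgfr*, at 48 and 52 beside 47 in U9-KO replicate 2, and of *Cyp17a1*, at 6 and 6 beside 1 to 4 in the other males. These 2 libraries also had the highest male values of *Xist*, the transcript of the inactive X chromosome, at 41 and 40 against 4 to 20 in the other males. Male *Star*, *Lhcgr*, *Fdx1* and *Akr1c18* did not have their 2 highest values there. Of other genes high in females, *Sfrp4* and *Akr1cl* did not either, while the oocyte gene *Nobox* did, at 2 and 1 normalized counts against 0. The list of 10 epididymal genes summed to 4 to 10 in males and to 31 to 723 in females, highest in U9-KO female replicate 1 through *Cst8*, so it did not mark epididymis in these libraries. Transfer of female material into these libraries was not tested.

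The study asked whether loss of *U90926* alters the pWAT transcriptome, and the 8 genes were compared between genotypes within each sex. With DESeq2 the study did report differentially expressed genes in males and in females, but not with the sexes analyzed together. The counts of called genes below are those of limma and not the outcome of the study. No member passed in females, where limma on log2(normalized count + 1) called 0 of 24825 genes (0%) at an adjusted p of 0.05. No member passed at an unadjusted p of 0.05 either, where 553 genes (2.23%) did. The log2 fold change, U9-KO minus WT, was −0.49 (SE 1.26, 95% interval −3.24 to 2.26) for *Cyp11a1*, −0.77 (SE 0.72, −2.34 to 0.81) for *Star* and −0.90 (SE 1.06, −3.23 to 1.43) for *Hsd3b1*. It was 2.08 (SE 1.5, −1.20 to 5.37) for *Cyp17a1* and 0.50 (SE 1.26, −2.25 to 3.25) for *Lhcgr*. *Ptgfr*, *Akr1c18* and *Fdx1* were at −0.06, −0.02 and 0.05. The adjusted p was 1 for each of the 8. The intervals of *Cyp11a1*, *Lhcgr* and *Akr1c18* reached beyond 2 on the log2 scale in both directions, those of *Star* and *Hsd3b1* only below 0 and that of *Cyp17a1* only above 0, so a change of that size in those directions could not be told from none. The groups overlapped for all 8 members, while 0.238% of the genes tested had groups that did not overlap.

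The female fold changes moved with single libraries, in the top pair and outside it. Without U9-KO replicate 1 the log2 fold change of *Cyp11a1* was −1.42 and without WT replicate 4 it was 0.22. Without WT replicate 1, which had the lowest female *Cyp11a1*, it was −1.41, and that of *Lhcgr* turned to −0.23. The top pair was also left out together, a choice made after the values were seen. *Cyp11a1* was then at −0.71, *Star* at −1.11, *Hsd3b1* at −1.09, *Cyp17a1* at 1.99, *Lhcgr* at 0.28, *Ptgfr* at −0.31, *Akr1c18* at −0.26 and *Fdx1* at −0.04. No member passed the test in any of these fits. The median log2 fold change of the 8 was −0.04, with 3 above 0 and 5 below, beside a median of 0 over all genes tested.

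**Figure D5:**
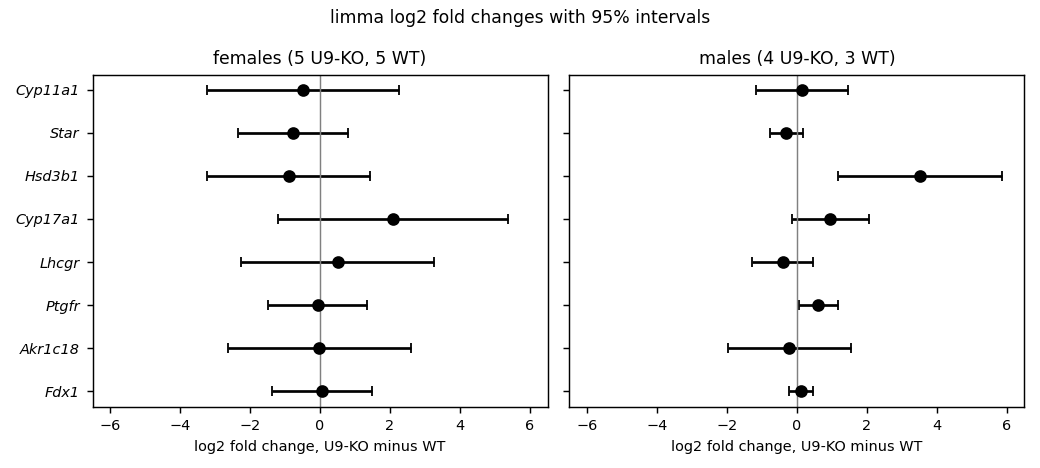
log2 fold change of the 8 genes, U9-KO minus WT, from limma in females (left) and males (right); points are estimates and bars 95% intervals. All female intervals cross 0, and the *Hsd3b1* (3.51) and *Ptgfr* (0.62) intervals in males lie above it without adjustment for the number of genes.

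In males limma called 0 of 21930 genes (0%) after adjustment, and 1667 genes (7.6%) had an unadjusted p under 0.05. Without WT replicate 1 the number called was 71, with no member among them. *Hsd3b1* had a log2 fold change of 3.51 (SE 1.05, 95% interval 1.17 to 5.85), with an unadjusted p of 0.00738 and an adjusted p of 0.612 in limma. It rests on normalized counts of 73, 46, 6 and 2 against 2, 0 and 0, and was 2.79 without U9-KO replicate 1. *Ptgfr* had a log2 fold change of 0.62 (SE 0.25, 0.06 to 1.17), an unadjusted p of 0.0332 and an adjusted p of 0.629 in limma. The other 6 members lay between −0.41 and 0.96. The groups overlapped for all 8 members in males too, where 7.6% of genes had groups that did not overlap.

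With the sexes fitted together and sex as a term, limma called 0 of 26289 genes (0%) and 1057 (4.02%) had an unadjusted p under 0.05, none of them a member. *Cyp17a1* was at 1.62 (SE 0.93, 95% interval −0.34 to 3.58) with an adjusted p of 0.938 in limma, the largest of the 8. The difference of the genotype effect between males and females called 0 of 26289 genes (0%), and 910 (3.46%) had an unadjusted p under 0.05. For *Hsd3b1* that difference was 4.41 on the log2 scale (SE 1.66), with an unadjusted p of 0.0164 and an adjusted p of 1 in limma, and the other 7 members had an adjusted p of 1 as well.

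The related lists gave no call between genotypes in either sex. In females none of the 8 tested luteal genes, 5 thecal genes, 9 regulators, 9 cholesterol supply genes, 10 granulosa genes or 12 oocyte genes had an unadjusted p under 0.05, and their median log2 fold changes were 0.38, −0.08, 0.07, 0, 0.03 and −0.44. Among 12 other steroid enzymes tested, *Cyp11b1* (−3.38) and *Cyp11b2* (−2.0) had an unadjusted p under 0.05, at an adjusted p of 1, and both were highest in WT replicate 1. In males, where 7.6% of all genes had an unadjusted p under 0.05, 4 of 7 tested luteal genes did: *Parm1* at 0.66, *Hsd17b7* at 0.47, *Prlr* at 0.37 and *Timp1* at −0.81 on the log2 scale, with adjusted p values of 0.612 to 0.647 in limma. Beside the same 7.6%, so did 1 of 5 thecal genes, 2 of 9 cholesterol supply genes, 2 of 8 granulosa genes and none of 8 regulators, 8 other steroid enzymes or 2 oocyte genes.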

How the data were processed

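The deposited values were gene-level read counts that the authors had scaled per library with DESeq2 size factors and rounded to whole numbers, so they were treated as a score on a count scale and not as raw counts. According to the submitters' processing notes and the methods, paired-end reads from stranded poly(A) libraries were aligned with STAR 2.7.3a to GRCm38, counted with summarizeOverlaps in union mode, which leaves out reads shared by genes, and normalized with DESeq2 1.28.1. A deposited table of all libraries repeats the single-library values and was not used. In the males, 2 columns carried other replicate numbers than their labels (U9-KO 4 and WT 3), and the labels were used. Names came from GENCODE M21, which named 55141 of 55401 identifiers.

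Library factors, and from them reads per library, were estimated from whole numbers that the scaling skipped or doubled. They are not given by the authors. Genotypes were compared with limma 3.58.1 (R 4.3.3, lmFit and eBayes with a trend) on log2(value + 1) over genes with a total of at least 10 in the fit, in females, in males, in both with sex as a term, and with an interaction. p-values were adjusted by Benjamini-Hochberg over all genes tested and called under 0.05. Adding 1 before the log shrinks the fold changes of low genes. Because the files hold normalized values, the DESeq2 test of the study was not repeated. Scripts in Python 3.11.15 (pandas 2.3.3, numpy 2.4.6) were tested on simulated data. Ratios of the 8 genes to the highest male used no floor. The count over all genes of a highest female at 10 times the highest male used a floor of 3 normalized counts for the male value. Ratios of highest to lowest within a sex used the same floor for the lowest value. The 8 genes and the marker lists were chosen with earlier results of these data known. Named genes were the 8, the check genes, the 3 members of each other list with the highest female mean, the 5 genes nearest in pattern to *Cyp11a1* and to *Cyp17a1*, and near copies. Other list genes, such as *Nr5a1*, *Gata4*, *Amh*, *Soat1* and *Akr1cl*, were named after their values were seen. Counting error was not modelled apart from the spread between libraries. The replicate numbers did not pair the samples: deviations of same-numbered females correlated at −0.446 to 0.153 and of males at −0.134 to 0.024. Alternatives were another pseudocount, no filter, no trend, TMM scaling, quantile normalization, the replicate block and leaving out each library.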

Additional observations from a re-analysis of the deposited data

Results flagged for a closer look

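Within each group of 4 or more libraries, the gap between the highest or lowest value of a named gene and the next library was set against Dixon's 95% limit. The gaps were taken on the normalized counts without a log, and were not computed on the log scale of the fits. For normally distributed values, chance alone passes the limit in about 1 of 20 groups. That share does not apply here: the values were not shown to be so distributed. The 8 genes were also chosen by their values in these libraries, and others for a pattern like theirs. The values below are therefore a description of which libraries lie far from the rest of their group and test nothing.

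For the 8 genes, U9-KO female replicate 1 lay far above its group in *Cyp11a1* (71595 against at most 9197), *Star* (8440 against 2118), *Hsd3b1* (45985 against 7574), *Cyp17a1* (1129 against 130), *Lhcgr* (6583 against 1796), *Ptgfr* (5299 against 1084), *Akr1c18* (685 against 18) and *Fdx1* (8209 against 2521). WT female replicate 4 lay far above its group in *Cyp11a1* (54629 against at most 14293), *Ptgfr* (2773 against 1173), *Akr1c18* (357 against 36) and *Fdx1* (6246 against 2190).

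Among the other luteal and thecal genes, U9-KO female replicate 1 stood apart for *Scarb1* (14295), *Sfrp4* (22099), *Prlr* (8612), *Aldh1a1* (12811) and *Hsd17b7* (16511), and WT female replicate 4 for *Sfrp4* (8947), *Prlr* (6202), *Aldh1a1* (20632) and *Ptch1* (2354). *Hsd17b7* in the WT females was set apart by replicate 2 instead (2214). The nuclear receptor gene *Nr5a2* stood apart in both (2795 and 2618), as did *Inha* (4018 and 7239). Oocyte genes did so as well, with *Padi6* at 442 and *Zp2* at 284 in U9-KO female replicate 1 and *Padi6* at 564, *Gdf9* at 435 and *Zp2* at 360 in WT female replicate 4. *Por*, the electron donor of microsomal P450 enzymes, was low in WT female replicate 4 (4650 against 6700 or more).

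Genes chosen for a pattern like that of *Cyp11a1* or *Cyp17a1* are by that choice high in much the same libraries. Their values past the limit in U9-KO female replicate 1 were those of *Acsbg1* (6657), *E330017L17Rik* (199), *Kcnab3* (604), *Frmd5* (1841), *Tmem171* (81), *5330417C22Rik* (316), *Bpifb5* (283), *Lipg* (6443) and *Plch2* (1698). In WT female replicate 4 they were those of *Acsbg1* (7714), *E330017L17Rik* (308) and *Frmd5* (2375). *Cst8*, listed here with epididymal genes, was at 710 in U9-KO female replicate 1 and at most at 133 in the others of its group.

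Other libraries stood apart for other tissues. *Ovgp1* was at 7684 in WT female replicate 3 and at 1256 in U9-KO female replicate 4, and *Foxj1*, a gene of ciliated cells, was at 328 in the latter. *Cyp21a1* (782) and *Cyp11b1* (523) stood apart in WT female replicate 1. In U9-KO males, *Mc2r* was at 372 in replicate 2 against 329 to 335, a small difference. No explanation of these values was tested.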

How the results depend on the processing

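In limma no count of called genes held a member under any alternative. Without the trend 1 gene was called in females (*Hfm1*), 1 in males (*4930583P06Rik*) and 1 in both sexes (*Kif16bos*), and *Kif16bos* was also the 1 gene called in both sexes with a pseudocount of 0.5 or with no filter. The difference between the sexes gave 1 call with no filter (*Lrp8os1*). Leaving out single libraries gave 0 to 71 calls in males, where 71 was the count without WT replicate 1, and 0 to 0 in females, in both sexes and for the difference between the sexes. The cause of these differences was not tested. The number of library-by-gene pairs at 10 or more times the highest male stayed at 46 to 48 without any one male, and was 53 at a ratio of 5 and 34 at a ratio of 20.

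The replicate block, tried although the numbers do not pair the libraries, gave 0 calls in each comparison, with 456 genes in females and 1393 in males at an unadjusted p under 0.05 against 553 and 1667 without it. Of the member log2 fold changes, it turned that of *Fdx1* for the difference between the sexes, to −0.0753.

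Signs of small fold changes turned when a library was left out. Over single libraries the female log2 fold changes ran from −1.42 to 0.22 for *Cyp11a1*, −1.11 to 0.83 for *Akr1c18*, −0.48 to 0.49 for *Fdx1*, −0.67 to 0.30 for *Ptgfr* and −0.34 to 1.18 for *Lhcgr*. *Star* (−1.39 to −0.25), *Hsd3b1* (−1.72 to −0.28) and *Cyp17a1* (1.16 to 2.92) kept theirs. In males they ran from −0.40 to 0.50 for *Cyp11a1*, −1.21 to 0.33 for *Akr1c18* and −0.0713 to 0.29 for *Fdx1*. In both sexes they ran from −0.74 to 0.19 for *Cyp11a1*, −0.72 to 0.37 for *Akr1c18*, −0.22 to 0.33 for *Fdx1*, −0.37 to 0.49 for *Lhcgr* and −0.11 to 0.44 for *Ptgfr*. For the difference between the sexes they ran from −0.0727 to 1.57 for *Cyp11a1*, −1.19 to 0.90 for *Akr1c18*, −0.38 to 0.59 for *Fdx1* and −0.0611 to 1.09 for *Star*. With WT female replicate 4 and U9-KO female replicate 1 both left out, *Fdx1* in females was −0.0359, *Lhcgr* in both sexes −0.0349 and the difference between the sexes for *Akr1c18* 0.0479.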

Other observations

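Some genes outside the 8 that differ in role between follicle and corpus luteum were read for all female libraries after their values were seen. *Foxl2*, a transcription factor gene of granulosa cells, was at 194 to 1903 in every female and at 0 to 4 in males, so its presence was not limited to WT replicate 4 and U9-KO replicate 1. *Runx2*, which luteal cells also express, was at 2700 in U9-KO female replicate 1, 1069 in WT female replicate 4, 460 in U9-KO female replicate 5 and 321 in WT female replicate 2, and at 35 to 194 in the other females. The 4 libraries with the most *Runx2* were also the 4 with the most *Lhcgr* (6583, 2545, 1796 and 1982 in that order of libraries). *Srd5a1*, a steroid 5α-reductase gene, was at 855 in WT female replicate 4, 365 in WT female replicate 5 and 232 in U9-KO female replicate 1. *Hsd11b1*, which regenerates glucocorticoid in fat, ran the other way between the sexes, at 264 to 758 in females and 2536 to 4138 in males.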
